A study of Saccharomyces cerevisiae with 16 samples.

Results

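The nuclear genes of the mitochondrial respiratory chain and the ATP synthase were followed in budding yeast (*Saccharomyces cerevisiae*). These were 36 genes of the 7125 in the table of expression values, chosen by name. They comprised 4 genes of succinate dehydrogenase (complex II) together with NDI1, 9 genes of the cytochrome bc1 complex (complex III), the 2 cytochrome c genes, 9 genes of cytochrome c oxidase (complex IV) and 11 genes of the ATP synthase. All 36 passed the filter on low values, none overlapped another annotated gene, and between 86 and 23476 reads supported each value in a library.

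The respiratory chain passes electrons from NADH and succinate to oxygen through protein complexes of the inner mitochondrial membrane, and the ATP synthase uses the resulting proton gradient to make ATP. Budding yeast has no complex I and oxidises matrix NADH with the single protein Ndi1. Most subunits are made from nuclear genes and imported, while a few core subunits are encoded in mitochondrial DNA. In yeast growing on glucose these genes are held low by glucose repression, and the Hap2/3/4/5 complex, which binds CCAAT boxes, and Hap1, which responds to heme, activate many of them.

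RNA sequencing covered 12 biological samples in 6 groups of 2, all grown in YPD, a rich medium with glucose, to an OD600 of 0.7 to 1. The control, serine and WT groups carry the genotype wt in the labels. The serine group was treated with serine, with neither dose nor time given, and control was its reference here. The CK2 group has the genotype ck2, whose alleles the labels do not spell out; CK2 is the name of casein kinase 2. YBL574 is an S288C strain deleted for both chromosomal pairs of H3 and H4 genes, with the histones supplied from a plasmid carrying HHT1 and HHF1. H3T11A, the histone mutant in which threonine 11 of H3 is replaced by alanine, was built in that background by exchanging the plasmid for one with HHT2, HHF2 and TRP1. In both strains the plasmid is described as the only source of these histones. Replicates carry the numbers 2 and 3, or 1 and 3 in H3T11A, and values below follow that order. The title of the first CK2 library gives replicate 2 and its description replicate 1, and the title was followed. For YBL574 and H3T11A each RNA extraction gave 2 libraries, whose values were averaged. No label says that replicates were separate cultures, so the p-values measure only the spread between these samples.

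Read totals, recovered from the steps of low values, lay between 8774540 and 18078879 per library. The strain checks separated the groups. CKA1, a catalytic subunit of CK2, had an RPKM (reads scaled to transcript length and library size) of 0.0640 and 0.0680 in CK2, 1 read in each sample, against 25.0 to 66.9 elsewhere. HHT1 was at 6.78 and 9.78 in H3T11A and at 311 to 1200.4 in the other groups. TRP1 was at 0.96 and 0.39 in YBL574 and at 97.1 and 99.2 in H3T11A. H3T11A and YBL574 thus differ in the histone genes and marker of the plasmid too, which cannot be told apart from the substitution. HHT2, which the description of YBL574 leaves on neither chromosome nor plasmid, was at 225 and 261 there, against 869 to 1491 in the other groups, which goes against that description. Mating-type markers differed within the comparisons. MFA2, the a-factor gene, was at 745 to 1215 in WT, YBL574 and H3T11A and at 2.03 to 4.88 in control, serine and CK2, whereas MF(ALPHA)1, the alpha-factor gene, was at 339.8 to 1491 in control, serine and CK2 and at 2.01 to 5.21 in the others. CK2 and WT, and control and WT, therefore differ in their mating-type transcripts as well, and these differences cannot be told apart from the named ones. The same holds for chromosome V, whose 289 tested genes had a median log2 difference of 0.91 in CK2 against WT.

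The sequences before the start codons were searched for fixed strings taken as motifs of the activators. The window was the 300 bases that end 100 bases before each start codon, from the RefSeq build R64. CCAAT was searched on both strands and stood in 32 of the 36 windows, against 43.9% of 6001 nuclear protein-coding genes. TNATTGGT, searched on both strands, holds CCAAT on its opposite strand and stood in 15 of 36 windows against 5.33% of all. In 14 of these 15 it lay on the strand opposite to the gene, and 12 of the 15 began between 170 and 250 bases before the start codon. The Hap1 motif, a spaced pair of CGG triplets searched on both strands, was found in the window of 1 gene, QCR6, against 0.217% of all. These matches describe the letters only. Sites that differ from the strings by even 1 base are missed, so a window without a match may still hold a binding site. The windows are shown for the paired isoforms CYC1 and CYC7, and COX5A and COX5B, which are discussed as pairs below, and for ATP4, ATP7, RIP1 and NDI1, which hold TNATTGGT and are among the genes of largest difference below. Capitals mark CCAAT and TNATTGGT on either strand, and the cytochrome c windows hold neither exact string. All run 5′ to 3′ on the strand of the gene and end 100 bases before the start codon, with the whole window for CYC1 and CYC7 and the 150 bases nearest the gene for the others.
CYC1 (YJR048W, chrX:525935-526234, plus strand): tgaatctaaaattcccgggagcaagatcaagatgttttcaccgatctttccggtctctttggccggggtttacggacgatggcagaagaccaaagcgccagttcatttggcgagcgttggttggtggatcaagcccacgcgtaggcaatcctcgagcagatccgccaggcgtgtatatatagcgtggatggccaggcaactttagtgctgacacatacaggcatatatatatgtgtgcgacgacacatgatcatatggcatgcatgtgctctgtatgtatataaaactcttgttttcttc
CYC7 (YEL039C, chrV:80078-80377, minus strand): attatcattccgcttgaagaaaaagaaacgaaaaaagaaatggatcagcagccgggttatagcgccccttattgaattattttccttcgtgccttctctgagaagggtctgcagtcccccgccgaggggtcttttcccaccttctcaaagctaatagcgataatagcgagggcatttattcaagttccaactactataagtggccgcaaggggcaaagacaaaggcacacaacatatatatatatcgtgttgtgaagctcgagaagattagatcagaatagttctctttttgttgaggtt
COX5A (YNL052W, chrXIV:531475-531624, plus strand): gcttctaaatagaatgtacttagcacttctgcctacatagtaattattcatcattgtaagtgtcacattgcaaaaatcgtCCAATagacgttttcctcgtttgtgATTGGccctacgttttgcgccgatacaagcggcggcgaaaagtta
COX5B (YIL111W, chrIX:154972-155121, plus strand): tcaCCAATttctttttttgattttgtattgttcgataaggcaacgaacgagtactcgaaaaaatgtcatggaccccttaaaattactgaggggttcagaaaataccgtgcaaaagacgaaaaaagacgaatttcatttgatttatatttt
ATP4 (YPL078C, chrXVI:408845-408994, minus strand): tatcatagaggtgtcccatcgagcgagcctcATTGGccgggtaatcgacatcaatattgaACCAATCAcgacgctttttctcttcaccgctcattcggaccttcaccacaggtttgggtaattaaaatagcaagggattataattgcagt
ATP7 (YKL016C, chrXI:408090-408239, minus strand): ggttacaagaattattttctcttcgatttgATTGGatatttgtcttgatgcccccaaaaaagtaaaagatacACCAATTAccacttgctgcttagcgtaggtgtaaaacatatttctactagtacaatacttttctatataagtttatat
RIP1 (YEL024W, chrV:107010-107159, plus strand): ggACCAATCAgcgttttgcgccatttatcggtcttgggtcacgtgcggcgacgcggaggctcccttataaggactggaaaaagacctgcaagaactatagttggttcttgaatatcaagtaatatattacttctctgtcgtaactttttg
NDI1 (YML120C, chrXIII:29908-30057, minus strand): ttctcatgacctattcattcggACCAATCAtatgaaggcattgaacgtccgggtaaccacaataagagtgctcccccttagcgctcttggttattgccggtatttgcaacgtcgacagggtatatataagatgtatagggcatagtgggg

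Levels of the 36 genes differed between the groups. Their summed RPKM was 9466 and 10219 in control, 9663 and 10413 in serine, 6746 and 6476 in WT, 4782 and 5268 in CK2, 6661 and 9171 in YBL574, and 7666 and 7479 in H3T11A. The CK2 samples were thus the lowest 2 of the 12 and the serine and control samples the highest 4. In such bulk samples, fewer cells expressing a gene and less RNA per cell cannot be told apart. ATP2 (YJR121W), the catalytic beta subunit of the ATP synthase, was the most abundant in all 12 samples, at 783 and 842 in control, 814 and 831 in serine, 519 and 459.7 in WT, 322 and 358 in CK2, 703 and 947 in YBL574 and 1014 and 979 in H3T11A. The least abundant was NDI1 in WT and CK2, and CYC1 or CYC7 elsewhere. CYC1 had the lowest mean over the samples, 71.5, and ATP2 the highest, 714. Between its lowest and its highest sample a gene differed by a median of 2.7-fold, from 1.67-fold for COX6, an oxidase subunit, to 11.1-fold for CYC7, the minor cytochrome c.

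**Figure D1:**
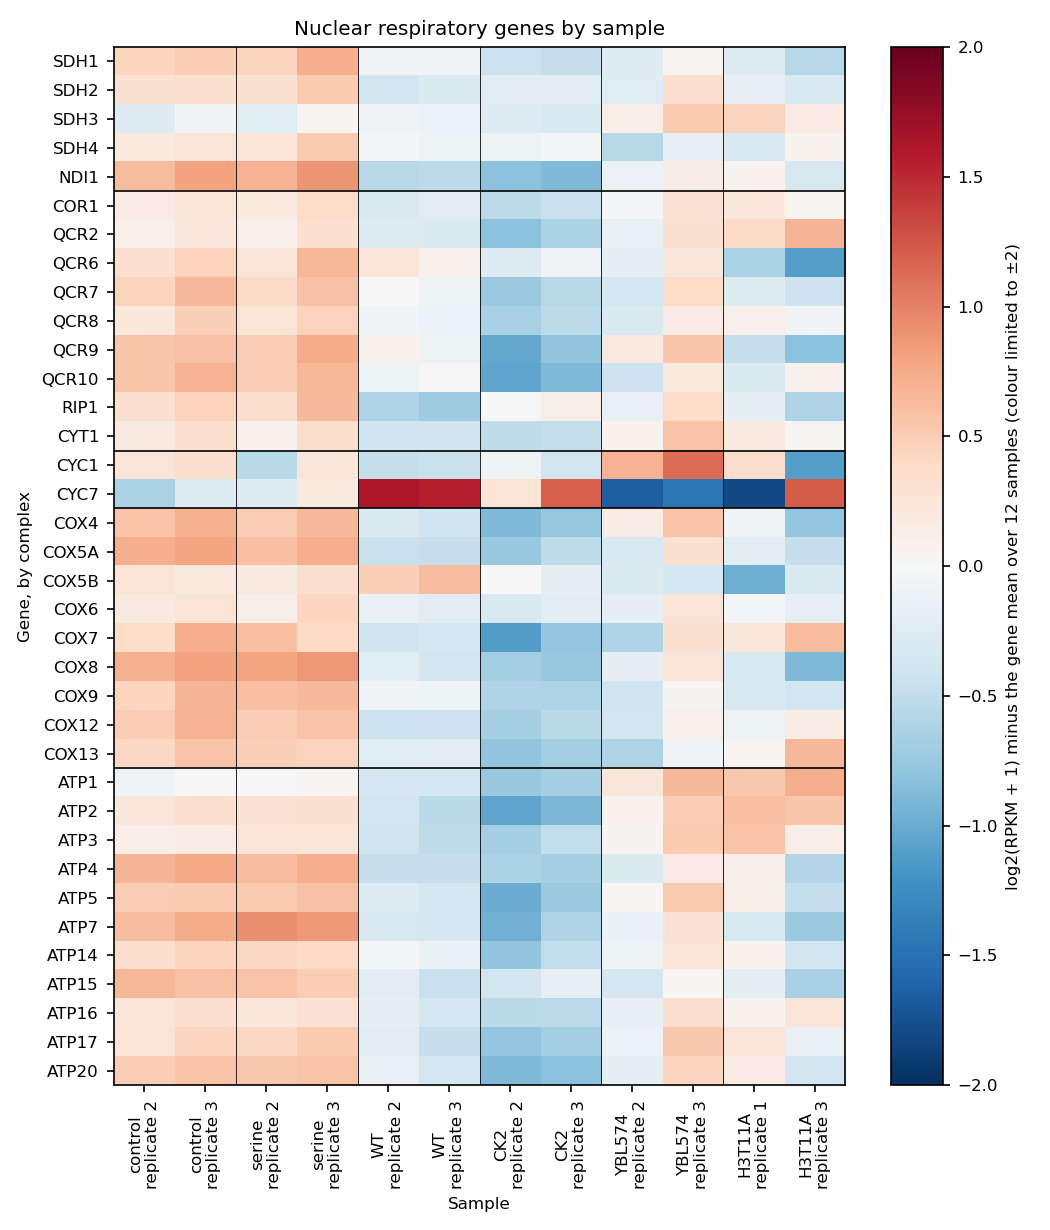
Each row is a gene, each column a biological sample, and the colour is log2(RPKM + 1) minus the gene's mean over the 12 samples. Control and serine columns are above the mean for most genes, CK2 columns are below it, and CYC7 and COX5B run against the other genes in WT.

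Differences were tested with limma on log2(RPKM + 1) over 6727 genes, with p-values adjusted over all of them and called under 0.05. Log2 differences are on this scale.

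None of the 36 genes passed the test between serine and control. Limma called 1.34% of all genes (0.714% higher and 0.624% lower) and 0 of the 36, and 0 had an unadjusted p under 0.05, also with limma's voom on recovered reads. Their median log2 difference was 0.04, against 0.00 over all genes. The differences ran from -0.46 for CYC1, with 44.8 and 77.3 in serine against 79.0 and 84.2 in control, to 0.42 for CYC7, with 102 and 140.1 against 78.2 and 101. In 5 genes both serine values were above both control values, against 27.8% of all genes, and in 2 both were below, against 27.2%. CYC1 and CYC7 were outside the test's threshold, and in both the replicates of serine were further apart than the group means. The median SE of a difference was 0.18, and differences of that size were not detectable with 2 samples a group, nor was the 0.22 of ATP7 (limma, unadjusted p = 0.272).

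CK2 samples had lower levels of most respiratory genes than WT. Of the 36, 7 fell and 1 rose, and 28 did not pass. The backgrounds were 14.6% of all genes lower and 16.4% higher, or 31% in either direction, so the share called was below that of all genes. The shift was wide and small: the median log2 difference was -0.38, against 0.01 over all genes, and 31 of the 36 differences were negative. In 30 of the 36 both CK2 values were below both WT values, against 37.6% of all genes, and in 3 (RIP1, CYC1 and SDH2) both were above, against 38.6%. Scaled to nuclear genes alone, the median of all genes fell by 0.11, and the gap between the 36 genes and all genes was -0.40 instead of -0.39.

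Complex III held the largest changes in CK2. It carries electrons from ubiquinol to cytochrome c. QCR10 (YHR001W-A), a small accessory subunit, had an RPKM of 175 and 187 in WT and 88.4 and 99.6 in CK2, a difference of -0.94 ± 0.20 (SE, adjusted p = 0.00706). QCR9 (YGR183C), another small subunit, had 209.7 and 188 in WT and 98.3 and 116 in CK2, a difference of -0.89 ± 0.17 (SE, adjusted p = 0.0048). In both genes the 2 CK2 values lay far below the WT values. QCR8, which sits beside the ubiquinone site, had 150.2 and 144 in WT and 98.6 and 107 in CK2, a difference of -0.51 ± 0.16 (SE, adjusted p = 0.0383). RIP1, the Rieske iron-sulfur protein, was the one gene that rose, with 82.9 and 77.6 in WT and 127 and 139 in CK2, a difference of 0.72 ± 0.19 (SE, adjusted p = 0.021). RIP1 lies on chromosome V, whose 289 tested genes had a median log2 difference of 0.91 in CK2 against WT, while the other 15 nuclear chromosomes had medians from -0.06 to 0.02. CYC7, the only other gene of the 36 on chromosome V, had a difference of -0.85 ± 0.76 (SE, adjusted p = 0.421). RIP1 thus rose by less than the median of its chromosome, and its call was lost when values were scaled to nuclear genes (0.60, adjusted p = 0.0851) or to nuclear protein-coding genes (0.56, adjusted p = 0.104). The other 5 genes of complex III were at differences of -0.60 to -0.10 and did not pass.

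Complex IV, which passes electrons to oxygen, was lower in CK2 in all 9 genes, and 2 of these fell. COX5B, the alternative form of subunit 5, had 381 and 423 in WT and 270.5 and 241 in CK2, a difference of -0.65 ± 0.20 (SE, adjusted p = 0.0332). COX9, a small subunit, had 254 and 249.6 in WT and 173 and 172 in CK2, a difference of -0.54 ± 0.15 (SE, adjusted p = 0.0249). The other 7 genes lay between -0.56 (COX7) and -0.08 (COX6). In the ATP synthase 2 of 11 genes fell. ATP14, a subunit of the peripheral stalk, had 228 and 212 in WT and 135 and 165 in CK2, a difference of -0.55 ± 0.17 (SE, adjusted p = 0.0403), and ATP2 had 519 and 459.7 in WT and 322 and 358 in CK2, a difference of -0.52 ± 0.15 (SE, adjusted p = 0.0298). ATP15, the epsilon subunit, was the only synthase gene with a positive difference, 0.06. None of the 5 genes of complex II and NDI1 passed, with differences from -0.38 (SDH1) to 0.11 (SDH2), nor did either cytochrome c gene.

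The count of called genes in CK2 changed with the libraries, the scaling and the fit. Leaving out any 1 of the 4 libraries of the comparison left 1 or 2 calls, QCR9 among them each time, while the median stayed between -0.44 and -0.34. The number was 3 with upper-quartile scaling (1 higher, 2 lower), 12 with median-of-ratios scaling, 13 with voom, 23 in a fit of the 2 groups alone and 20 with a block for the replicate numbers, and scaled to nuclear genes it was 11, all lower.

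The CK2 samples were alike in the nuclear genes and unlike in mitochondrially encoded ones. Against the WT mean, CK2 replicate 2 was lower in 33 of the 36 nuclear genes with a median of -0.42, and CK2 replicate 3 in 31 of 36 with a median of -0.34. Both replicates were lower in 31 genes, against 42.9% of all genes, both were higher in 3, and ATP15 and SDH4 pointed opposite ways. Replicate 3 minus replicate 2 had a median of 0.11 and was positive in 28 genes. The extremes were CYC7, with 147 in replicate 2 and 278 in replicate 3 (0.91), and CYC1, with 62.3 and 49.9 (-0.31). The mitochondrially encoded core subunits stood far apart. COX1, COB, ATP6 and OLI1, which encode subunit 1 of complex IV, cytochrome b of complex III and subunits 6 and 9 of the ATP synthase, were at 0.71, 0.49, 0.27 and 0.93 in CK2 replicate 2. In replicate 3 they were at 941, 677, 319 and 2795. COX2 and COX3, subunits 2 and 3 of complex IV, were at 772 and 2281 in replicate 2 and at 932 and 1326 in replicate 3. A sample with nearly no transcripts of 4 mitochondrial genes thus differed from its partner by a median size of 0.12 in the 36 nuclear genes, against 0.10 over all genes. Mitochondrial transcripts made up 0.262% of the exon-length-weighted RPKM in replicate 2 and 1.31% in replicate 3, against 1.88% to 2.33% in WT and 4.04% to 6.26% in the other groups, and their part in the nuclear differences was not tested.

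**Figure D2:**
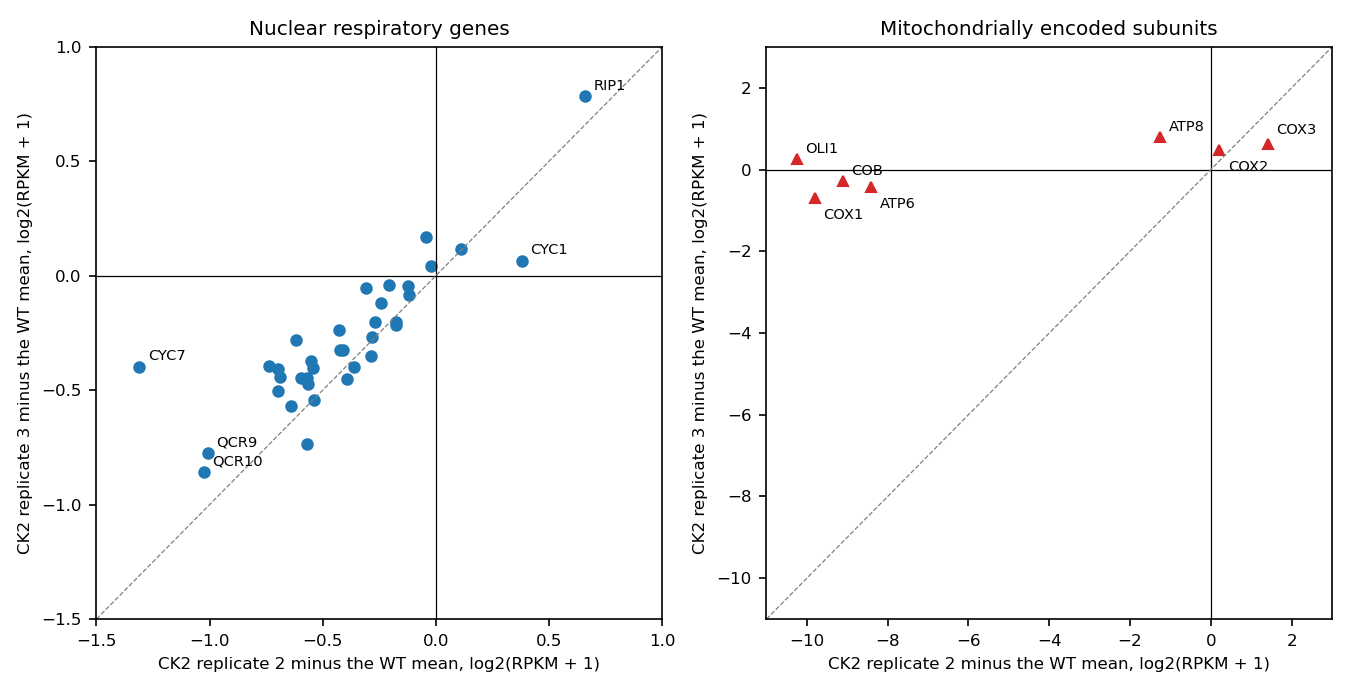
The left panel plots the 36 nuclear genes and the right panel 7 mitochondrially encoded subunits, each by its difference from the WT mean in CK2 replicate 2 (x axis) and replicate 3 (y axis), in log2(RPKM + 1), with the line of equality dashed. Nuclear genes other than CYC7 lie near the line, while COX1, COB, ATP6 and OLI1 lie far to its left.

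H3T11A differed from YBL574 in a few genes and in both directions. Of the 36, 6 fell and 1 rose, where 21.6% of all genes were called lower and 19.1% higher (40.7% in either direction). The median was -0.17, against -0.06 over all genes, and 24 of 36 differences were negative. CYC1, the main cytochrome c, fell the most, with 107 and 144 in YBL574 and 83.9 and 30.1 in H3T11A, a difference of -1.28 ± 0.42 (SE, adjusted p = 0.0357). Without H3T11A replicate 3 the CYC1 difference was -0.56 (limma, adjusted p = 0.156), smaller than that of QCR9. In complex III, QCR9 had 226 and 296 in YBL574 and 145 and 114 in H3T11A, a difference of -1.01 ± 0.17 (SE, adjusted p = 0.00228), and QCR6, the acidic hinge subunit, had 172 and 231 in YBL574 and 126 and 91.9 in H3T11A, a difference of -0.88 ± 0.20 (SE, adjusted p = 0.00891). In all 3 genes the groups did not overlap.

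In complex IV the genes split. COX4, a subunit needed for assembly, had 170.1 and 228 in YBL574 and 146 and 89.1 in H3T11A, a difference of -0.78 ± 0.22 (SE, adjusted p = 0.0207), and COX8, a small subunit, had 160.0 and 216 in YBL574 and 147 and 98.1 in H3T11A, a difference of -0.63 ± 0.19 (SE, adjusted p = 0.0287). COX13, which is not essential for the enzyme, rose, with 214 and 315 in YBL574 and 336 and 518 in H3T11A, a difference of 0.68 ± 0.22 (SE, adjusted p = 0.0353). ATP7, subunit d of the synthase stalk, had 252 and 339 in YBL574 and 223 and 166 in H3T11A, a difference of -0.60 ± 0.19 (SE, adjusted p = 0.03). Groups did not overlap in 8 genes lower in H3T11A, against 35.7% of all genes, and in 3 higher, against 29.7%. No gene of complex II, and not NDI1, passed.

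These calls depended on single samples. Without H3T11A replicate 3, 3 genes were called (COX5B, QCR6 and QCR9, all lower), and without H3T11A replicate 1, 16 (4 higher). Without YBL574 replicate 3, 4 genes were higher and 1 lower and the median turned to 0.05, and without YBL574 replicate 2, 10 were called, all lower, with a median of -0.40. In the fit of the 2 groups alone limma called 0, with 2 unadjusted p-values under 0.05. Scaling to nuclear genes moved the median of all genes by -0.31 and gave 17 lower and 0 higher, while the gap of the 36 genes to all genes went from -0.11 to -0.14.

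The replicates of these 2 strains were further apart in the respiratory genes, with a median size of the difference of 0.44 in YBL574 and 0.38 in H3T11A against 0.07 to 0.16 in the other groups. In YBL574, replicate 3 was above replicate 2 in 35 of 36 genes with a median of 0.44, against a median of 0.00 over all genes. COX7, a small subunit of complex IV, had the largest difference, 0.92. In H3T11A, replicate 3 was below replicate 1 in 26 genes with a median of -0.22. CYC7 was at 34.0 in replicate 1 and 281 in replicate 3, and CYC1 at 83.9 and 30.1, so the cytochrome c forms changed places between samples of 1 strain. In the other 4 groups the medians lay between -0.06 and 0.15. The median size of the difference over all genes was 0.32 in H3T11A and between 0.09 and 0.10 in the other groups.

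**Figure D3:**
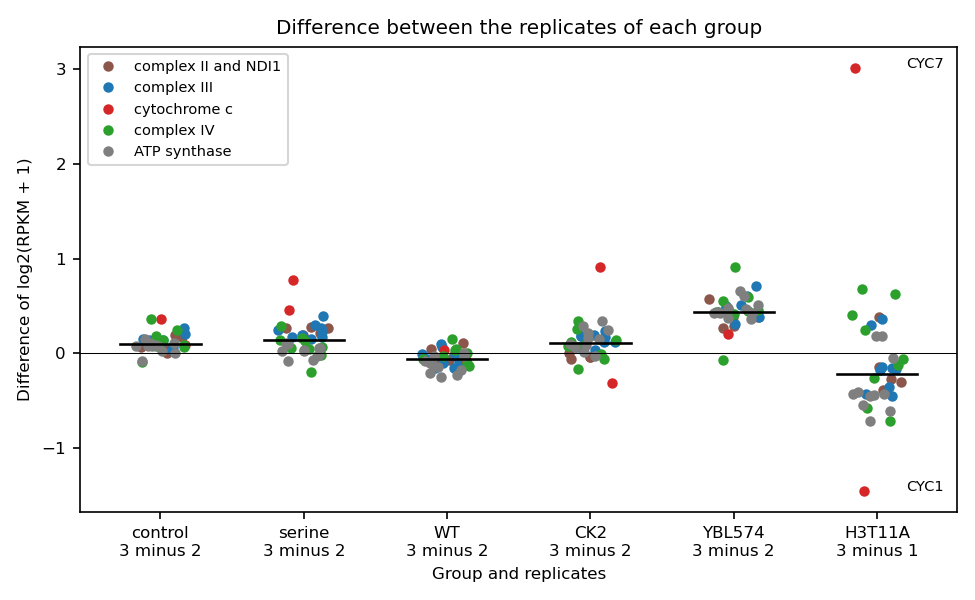
Each point is 1 of the 36 genes, placed by the difference of log2(RPKM + 1) between the replicates of its group, with the median as a black line and colours for the complexes. YBL574 lies above 0 in 35 genes, and CYC7 and CYC1 stand out in H3T11A at 3.01 and -1.45.

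The reference groups were then set against each other. These comparisons reuse the WT samples of the CK2 comparison and the reference samples of the others. Control had higher levels than WT in 27 genes and lower in 1, where 22.1% and 36.9% of all genes were called (59% in either direction). The median was 0.65, against -0.17 over all genes, and in 33 genes both control values were above both WT values, against 34% of all genes, and in 2 both were below, against 50.4%. NDI1, which oxidises NADH in the matrix, was at 103 and 117 in control, 108 and 123 in serine, 44.5 and 46.0 in WT, 36.9 and 35.3 in CK2, 60.9 and 73.3 in YBL574 and 69.4 and 52.9 in H3T11A, and rose in control by 1.26 ± 0.15 (SE, adjusted p = 0.000107). RIP1 was at 159 and 175 in control, 162 and 200.2 in serine, 82.9 and 77.6 in WT, 127 and 139 in CK2, 115 and 164 in YBL574 and 111 and 82.4 in H3T11A, a difference of 1.05 ± 0.19 (SE, adjusted p = 0.00155). The lowest sample was a CK2 sample for NDI1 and a WT sample for RIP1.

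In complex IV 7 of 9 genes were called higher. COX5A, the main form of subunit 5, differed by 1.22 ± 0.19 (SE, adjusted p = 0.000514). COX8 was at 299 and 316 in control, 315 and 331 in serine, 153 and 139.7 in WT, 111 and 107 in CK2, 160.0 and 216 in YBL574 and 147 and 98.1 in H3T11A, a difference of 1.07 ± 0.19 (SE, adjusted p = 0.00133). COX12, a small subunit on the intermembrane side, was at 285 and 325 in control, 285 and 297 in serine, 149 and 149 in WT, 126 and 137 in CK2, 155 and 212 in YBL574 and 187 and 223 in H3T11A, a difference of 1.02 ± 0.15 (SE, adjusted p = 0.000499). Control and serine values of these genes lay above those of all other samples. In the ATP synthase 10 of 11 genes were called higher, ATP1 being the exception at 0.31 ± 0.14 (SE, adjusted p = 0.0912). ATP4, subunit b of the stalk, was at 347 and 367 in control, 332 and 360.0 in serine, 158 and 158 in WT, 139.8 and 137 in CK2, 180.2 and 245 in YBL574 and 237 and 144 in H3T11A, a difference of 1.17 ± 0.22 (SE, adjusted p = 0.00151). ATP7 was at 427 and 462 in control, 529 and 505 in serine, 221 and 216 in WT, 142 and 179.8 in CK2, 252 and 339 in YBL574 and 223 and 166 in H3T11A, a difference of 1.02 ± 0.19 (SE, adjusted p = 0.00142). In both, control and serine exceeded the rest. In complex III 7 of 9 and in complex II with NDI1 3 of 5 were called higher. CYC7 was the single gene called lower, by -2.03 ± 0.76 (SE, adjusted p = 0.0453), and that call was lost with median-of-ratios (adjusted p = 0.0656) and upper-quartile scaling (adjusted p = 0.0603), with voom (adjusted p = 0.0567) and without any 1 of the 4 libraries (adjusted p of 0.102 to 0.161). The number of calls was 12 without control replicate 3, 18 without WT replicate 2 and 16 without WT replicate 3, all higher.

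YBL574 stood above WT as well, against the run of all genes. Of the 36 genes 11 were higher and 2 lower, where 6.42% of all genes were called higher and 48.4% lower (54.9% in either direction). The median was 0.36, against -0.36 over all genes. Both YBL574 values were above both WT values in 21 genes, against 16.9% of all genes, and below in 3, against 66.7%. With median-of-ratios scaling the median of all genes moved by 0.38, and 25 genes were higher and 1 lower; with upper-quartile scaling it moved by 0.43, and 27 were higher and 1 lower. The gap between the 36 genes and all genes stayed between 0.72 and 0.75 as deposited and under the 4 scalings. Of the catalytic head of the synthase, ATP1 (alpha) was at 369.8 and 392 in control, 389.8 and 400.1 in serine, 309.9 and 304 in WT, 231 and 245 in CK2, 455 and 613 in YBL574 and 569 and 645 in H3T11A, a difference of 0.78 ± 0.14 (SE, adjusted p = 0.00178), and ATP3 (gamma) was at 268 and 273 in control, 294 and 289.7 in serine, 185 and 172 in WT, 154 and 173 in CK2, 255 and 353 in YBL574 and 362 and 268 in H3T11A, a difference of 0.75 ± 0.18 (SE, adjusted p = 0.0066). ATP2 differed by 0.74 ± 0.15 (SE, adjusted p = 0.00329). All of them had higher values in YBL574 and H3T11A than in WT and CK2.

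Of complex III, CYT1, cytochrome c1, was at 158 and 175 in control, 146 and 177 in serine, 105 and 104 in WT, 96.6 and 98.7 in CK2, 145 and 207 in YBL574 and 156 and 140.4 in H3T11A, a difference of 0.72 ± 0.16 (SE, adjusted p = 0.00564), and RIP1 differed by 0.77 ± 0.19 (SE, adjusted p = 0.00884). The RIP1 call was lost with the first technical libraries alone (0.52, limma, adjusted p = 0.0618). COX5B and CYC7 were the genes called lower, COX5B by -0.87 ± 0.20 (SE, adjusted p = 0.00496) and CYC7 by -3.13 ± 0.76 (SE, adjusted p = 0.00751), and the COX5B call was lost with median-of-ratios (adjusted p = 0.112) and upper-quartile scaling (adjusted p = 0.192). CYC1 rose by 1.37 ± 0.42 (SE, adjusted p = 0.0206). The number of calls followed the YBL574 replicates, being 24 without replicate 2 and 5 without replicate 3, with medians of 0.59 and 0.11. It was 7 without either of the WT replicates.

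**Figure D4:**
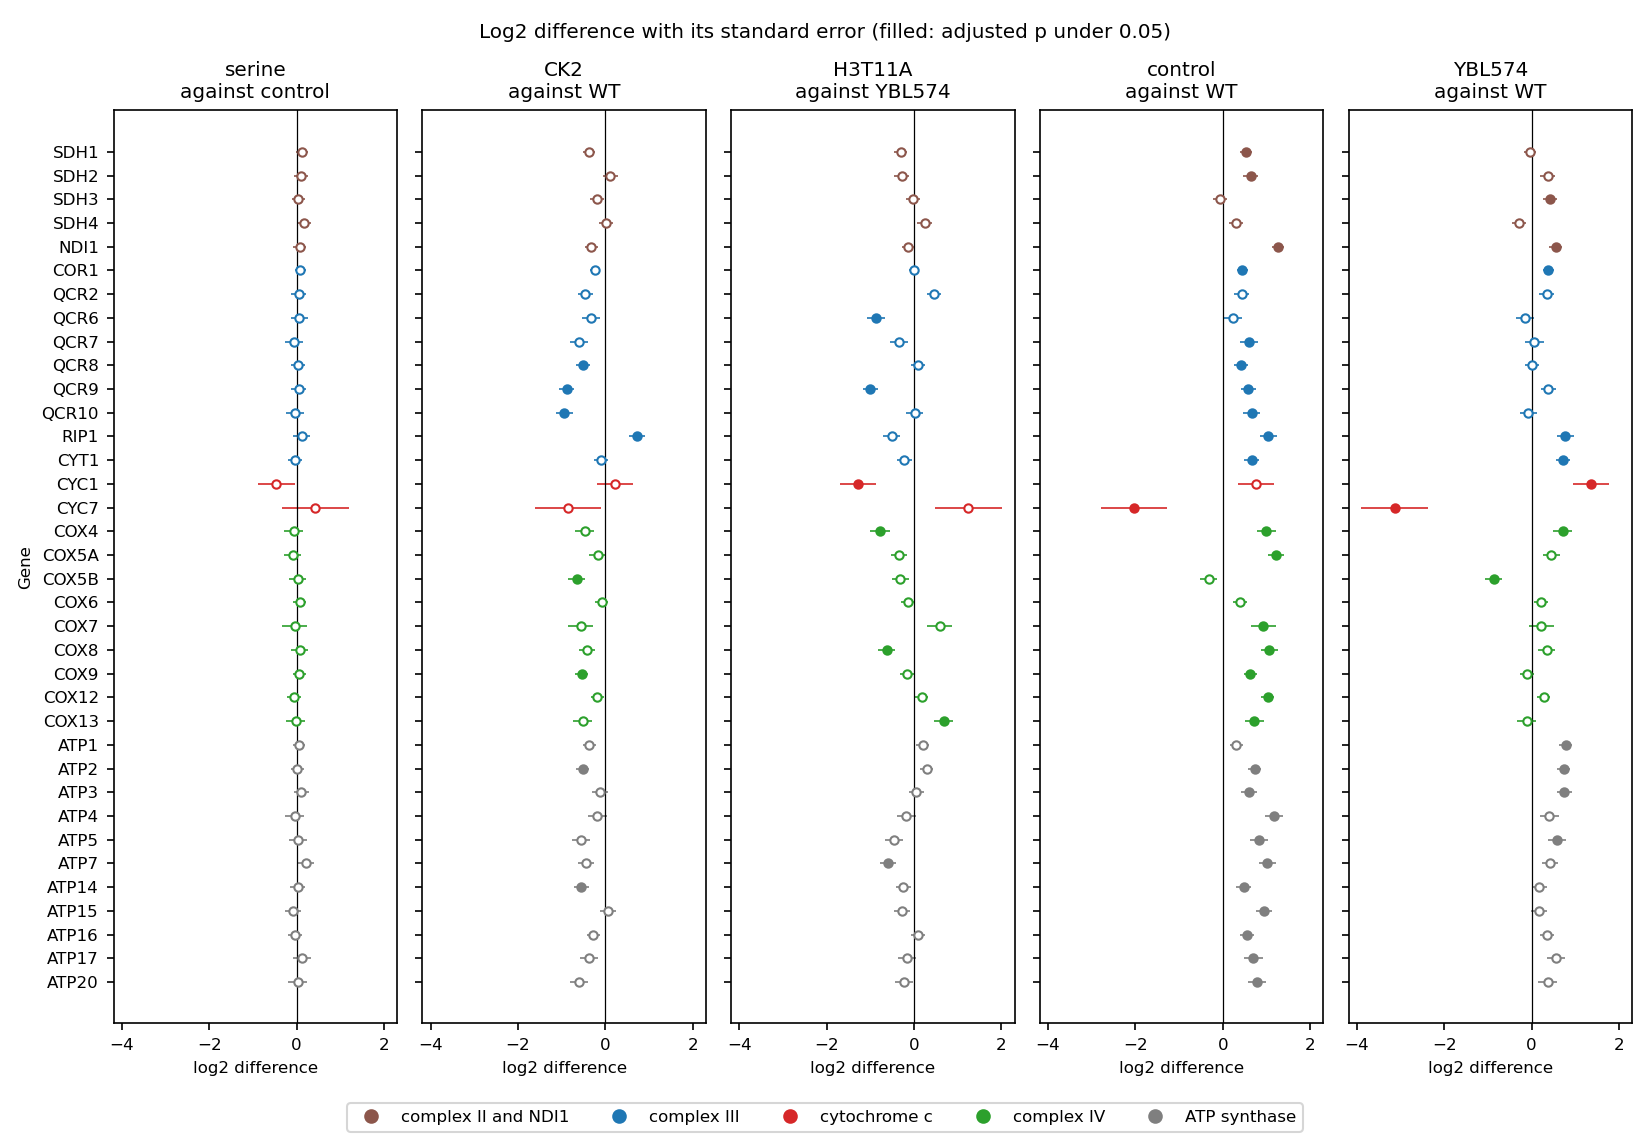
For each gene (rows, coloured by complex) the log2 difference of each comparison is shown with its standard error, and filled points have an adjusted p under 0.05. No point is filled for serine, most CK2 points lie left of 0, and most control and YBL574 points lie right of 0, with CYC7 and COX5B the furthest left.

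The 4 genes of the isoform pairs are given in full here. In yeast CYC1 and COX5A are the forms expressed with oxygen and heme, and CYC7 and COX5B those favoured when oxygen is low. CYC1 was at 79.0 and 84.2 in control, 44.8 and 77.3 in serine, 47.0 and 48.1 in WT, 62.3 and 49.9 in CK2, 107 and 144 in YBL574 and 83.9 and 30.1 in H3T11A. CYC7 was at 78.2 and 101 in control, 102 and 140.1 in serine, 376 and 358 in WT, 147 and 278 in CK2, 38.2 and 44.1 in YBL574 and 34.0 and 281 in H3T11A. CYC7 was highest in WT and lowest in YBL574 and H3T11A replicate 1, and the ratio of CYC7 to CYC1 RPKM went from 0.306 in YBL574 replicate 3 to 9.34 in H3T11A replicate 3. Both WT ratios were at least 7.44, and those of CK2 were 2.37 and 5.58. COX5A was at 265 and 277 in control, 243 and 265 in serine, 117 and 115 in WT, 93.6 and 112 in CK2, 129 and 196 in YBL574 and 138 and 115 in H3T11A. COX5B was at 331 and 311 in control, 309 and 347 in serine, 381 and 423 in WT, 270.5 and 241 in CK2, 224 and 214 in YBL574 and 139 and 223 in H3T11A. COX5B exceeded COX5A in all 12 samples, from 1.01-fold in H3T11A replicate 1 to 3.68-fold in WT replicate 3, and the highest COX5B values were those of WT. This order holds for averages over technical libraries. In the second library of YBL574 replicate 3 COX5B was at 168 and COX5A at 181, and in that of H3T11A replicate 1 they were at 103 and 133, so that COX5B was the lower one there.

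**Figure D5:**
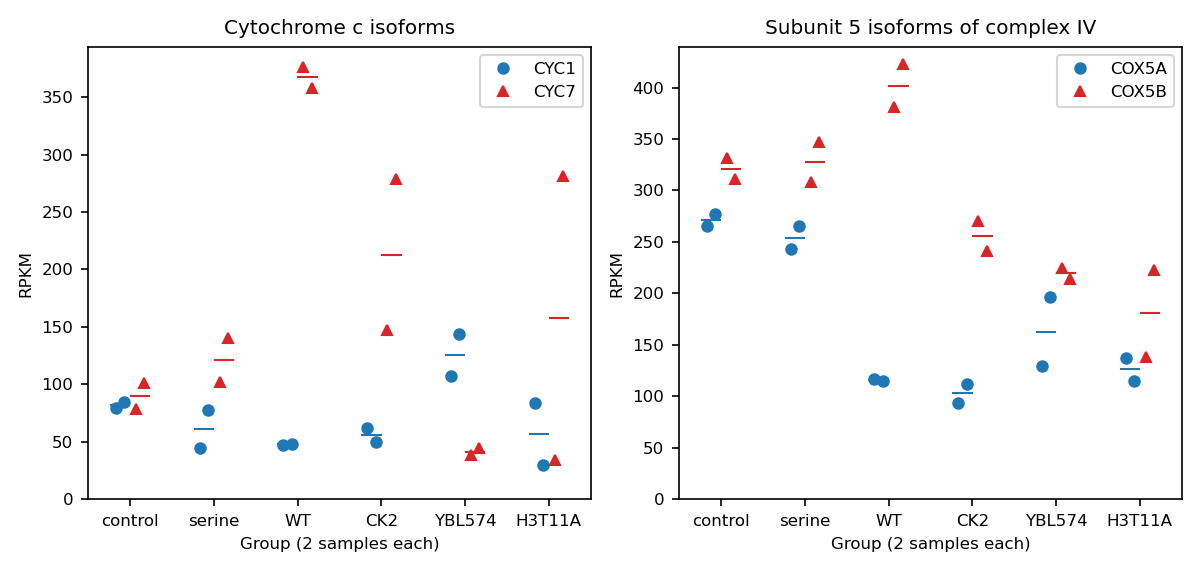
Points are RPKM in each of the 12 samples and short lines the mean of the 2 samples of a group, for cytochrome c (left) and subunit 5 of complex IV (right). CYC7 is far above CYC1 in WT and below it in YBL574, and COX5B is above COX5A in every sample, although in the second technical library of YBL574 replicate 3 and of H3T11A replicate 1 it was below.

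The second libraries of the same RNA set the size of a technical difference. In the 4 extractions with 2 libraries, CYC7 was lower in the second library by 0.84 to 1.26 on the log2 scale each time, and COX7 was higher by 0.70 to 0.96. In all, 25 of the 36 genes moved the same way in the 4 extractions (18 higher and 7 lower), against 61.2% of all genes. COX5B was lower in the second library each time as well, by 0.55 to 0.76. RIP1 was higher there each time by 0.29 to 0.54, and ATP1 by 0.36 to 0.61. These shifts are as large as several differences between groups, and groups with a single library per sample cannot be checked for them. In comparisons with WT, YBL574 values are averages over 2 libraries and WT values come from 1. With the first libraries alone, 9 of the 36 genes were called higher and 2 lower in YBL574 against WT. The calls of RIP1, COR1 and SDH3 were lost and COX5A was called. With the second libraries alone, 14 were higher and 3 lower.

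In S288C strains the HAP1 gene is known to carry a transposon insertion. Of 7 regulators (HAP1 to HAP5, ROX1 and MOT3), HAP1 rose and HAP4 fell in CK2, where 31% of all genes were called. HAP1, the heme-responsive activator, was at 166 and 175 in WT and 306 and 316 in CK2, a difference of 0.86 ± 0.17 (SE, adjusted p = 0.00508). HAP4, the activating subunit of the CCAAT-binding complex, was at 134 and 149 in WT and 106 and 98.1 in CK2, a difference of -0.47 ± 0.12 (SE, adjusted p = 0.018). In H3T11A against YBL574, HAP1 rose by 0.61 ± 0.17 (SE, adjusted p = 0.0195) and HAP5 fell by 0.48 ± 0.11 (SE, adjusted p = 0.00973). Of all genes 40.7% were called there. In YBL574 against WT, HAP2 (-0.50), HAP3 (-0.65) and HAP5 (-0.79) were lower and ROX1, a repressor of hypoxic genes, was higher (0.55). Of all genes 48.4% were lower and 6.42% higher there. The median of all genes was -0.36 in that comparison and moved by 0.38 and 0.43 with the scalings named above, shifts as large as several of these differences. In control against WT, HAP3 (-0.43) and HAP5 (-0.38) were lower and ROX1 (0.42) and MOT3 (0.39), another repressor, higher. Of all genes 36.9% were lower and 22.1% higher in that comparison, with a median of -0.17. Of 5 other dehydrogenases feeding the chain, 3 fell in CK2, against 14.6% of all genes. They were NDE1 (external NADH dehydrogenase, -1.23), NDE2 (its homologue, -1.04) and GUT2 (glycerol-3-phosphate dehydrogenase, -1.03), and all 5 differences were negative. In H3T11A NDE1 and DLD1, a lactate dehydrogenase, fell and CYB2, another, rose by 1.75. The backgrounds there were 21.6% of all genes lower and 19.1% higher. In control against WT 3 of the 5 were higher, against 22.1% of all genes. In YBL574 against WT 4 were lower, against 48.4%, with CYB2 at -2.74, and 1 was higher, against 6.42%.

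Of 7 other subunits and inhibitors of the complexes, 0 were called by limma in CK2, against 31% of all genes. Of these 7, 1 had an unadjusted p under 0.05, and all 7 differences were negative, with a median of -0.38. In control against WT 3 of them were higher, against 22.1% of all genes, with a median of 0.47. In YBL574 against WT 2 were lower, against 48.4% of all genes, and 6 of the 7 differences were negative. Their median was -0.36, where that of the 36 genes was 0.36 and that of all genes -0.36. In H3T11A limma called 0, against 40.7% of all genes, with 1 unadjusted p under 0.05 and a median of -0.26. The 49 assembly and translation factors, which build the complexes, had a median of 0.08 in CK2, against 0.01 over all genes. Of them 7 were higher and 5 lower, where 16.4% of all genes were higher and 14.6% lower. In control against WT they went the other way from the subunits, with 4 higher, 27 lower and a median of -0.40, against 22.1% higher, 36.9% lower and a median of -0.17 over all genes, and in YBL574 against WT 39 were lower, against 48.4% of all genes, and the median was -0.49, against -0.36. Of 8 heme synthesis genes 1 rose (HEM14, by 1.45) and 1 fell (HEM3, by 0.56) in CK2, where 16.4% of all genes were higher and 14.6% lower, and HEM14 lies on chromosome V, with its median of 0.91. In H3T11A 4 of the 8 fell (HEM1, HEM2, HEM3 and HEM4), against 21.6% of all genes. In serine limma called 0 genes of these lists on log2(RPKM + 1), and with voom on recovered reads it called 1 heme synthesis gene, HEM12. The assembly and translation factors had a positive difference in serine in 41 of 49 genes, against 50.8% of all genes. Their median was 0.14, against 0.00 over all genes. Of the 49, 8 had an unadjusted p under 0.05 in limma, against 934 of all 6727 genes tested.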

How the data were processed

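Per the labels, total RNA was extracted with the RNeasy mini kit and sequenced from Illumina libraries. The authors deposited 1 table of RPKM values, with 7125 genes and 16 libraries. The submitters' processing notes name CASAVA version 1.8.2, TopHat2 version 2.0.13, edgeR and the build sacCer3 (R64), without their roles, and the paper describes no RNA sequencing. Counting, annotation, strand and the denominator are not given in the sources used here. RPKM times exon length stepped by whole reads: 100% of values of at most 30 reads in single-exon genes lay within 0.1 of a whole number, so floors of 3 reads per library cover counting error only. Technical libraries were averaged, and the 6727 genes that reached an RPKM of 1 in 2 or more of the 12 replicates were fitted with limma version 3.58.1 in R version 4.3.3 on log2(RPKM + 1), all 6 groups together, with an intensity trend. Two-sided p-values were adjusted over all genes by Benjamini-Hochberg. Motifs were counted and figures drawn with Python version 3.11.15. Of the gene identifiers, 85.3% matched RefSeq R64. The members and gene lists were chosen with earlier results of these data known. Values in every sample are given for the isoform pairs, for up to 8 called genes of largest difference per comparison and for the extremes of level and of the CK2 replicates. The test was also run on simulated reads, with changes in serine only and the same spread in every sample. That run does not cover groups of unequal spread, such as H3T11A. Alternatives changed the pseudocount (0.1), the filter, the scaling, the groups fitted, the technical library, the test (voom on recovered reads), the replicate block and each replicate.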

Additional observations from a re-analysis of the deposited data

How the results depend on the processing

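Pseudocount, filter and first technical library kept the number of called genes in all 5 comparisons within 1.5-fold. No scaling turned the sign of the median of the 36 genes in a comparison. The median of all genes did turn with some scalings. In YBL574 against WT it went from -0.36 to 0.01 (median-of-ratios) and 0.07 (upper-quartile). In serine against control the number of called genes among the 36 stayed at 0 under every alternative. In CK2 against WT it went from 8 to 3 with upper-quartile scaling, 23 in the fit of the 2 groups alone and 13 with voom, and ran from 1 to 2 when leaving out each replicate. In H3T11A against YBL574 it went from 7 to 17 when scaled to nuclear genes, to 13 when scaled to nuclear protein-coding genes and to 0 in the fit of the 2 groups alone (2 unadjusted p-values under 0.05), and ran from 3 to 16 when leaving out each replicate. In control against WT it ran from 12 to 22 when leaving out each replicate, against 28 in all. In YBL574 against WT it went from 13 to 26 with median-of-ratios and 28 with upper-quartile scaling, and ran from 5 to 24 when leaving out each replicate. The fit of the 2 groups alone estimates the spread from 4 samples, and for the other changes the cause was not tested. Leaving out a replicate leaves 1 sample in that group, which is then assumed to vary like the others. Leaving out each replicate turned the sign of single genes. COX5B ran from -0.057 (without serine replicate 3) through -0.02 (without control replicate 3) to 0.11 (without serine replicate 2) in serine against control, and from -0.66 to 0.025 (without H3T11A replicate 1) in H3T11A against YBL574. CYC7 ran from -0.27 (without H3T11A replicate 3) to 2.75 in the latter. Over all genes, the calls higher and lower went from 432 and 3258 to 1200 and 1206 (median-of-ratios), 1363 and 965 (upper-quartile) and 618 and 1992 (nuclear genes) in YBL574 against WT, from 1284 and 1456 to 453 and 2793 (nuclear genes) in H3T11A, from 1486 and 2480 to 1883 and 1970 (median-of-ratios) in control against WT, from 1100 and 983 to 721 and 1195 (nuclear genes) and 1327 and 734 (upper-quartile) in CK2, and from 48 and 42 to 43 and 13 (nuclear genes) and 50 and 81 (voom) in serine. Fitting H3T11A and YBL574 alone called 224 of all genes against 2740. Leaving out each replicate gave 15 to 23 against 90 in serine, 1062 to 1270 against 2083 in CK2 and 1656 to 4008 in H3T11A.

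Replicate numbers are not said to mark a shared batch or day, and deviations of same-numbered samples had a Spearman correlation of -0.15 in serine against control, -0.01 in CK2 against WT, 0.14 in control against WT and 0.01 in YBL574 against WT. With the replicate number as a block, 0, 20, 34 and 13 genes were called in these comparisons. Only the 2 groups compared entered these models. Without the block, models of the 2 groups alone called 0, 23, 34 and 13, so the block lowered the count in CK2 and left the others unchanged. The main model of all 6 groups called 0, 8, 28 and 13. With crossed numbers in serine against control the block called 0, and either block called 0 of all genes. No paired analysis was possible for H3T11A against YBL574 because the groups share 1 number. The crossed pairing, the scaling to nuclear protein-coding genes and the use of the second technical library alone were added after seeing the data.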
